A study of Homo sapiens with 6 samples.

Results

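SKNMC is an established Ewing sarcoma cell line, and THZ1 is a covalent inhibitor of the kinase CDK7. The comparison described here sets SKNMC cells kept for 6 h in 200 nM THZ1 against SKNMC cells kept for 6 h in its vehicle, DMSO. Its members are the genes above 1 FPKM (fragments per kilobase of transcript, scaled to the mapped fragments of the library) in the DMSO library, called active here. They number 11895 of the 27420 genes listed, with 11550 protein-coding and 345 lincRNA genes. The series holds 6 libraries in all, since A673, another Ewing sarcoma line, was treated in the same way and each line also received 50 nM THZ1 for 6 h. Each condition has 1 library from cultured cells of 1 line, with no replicate. No difference could therefore be set against a replicate error, no p-value is given, and every fold change compares 2 libraries. By its name the deposited table holds averages, and whether a column averages several libraries is not given in the sources used here, so each column was taken as 1 library of its labelled condition.

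CDK7 is the kinase of the general transcription factor TFIIH. It phosphorylates the tail of RNA polymerase II when transcription starts, and it also activates the kinases of the cell cycle. When new transcription slows, mRNAs that are broken down quickly are known to leave the pool before long-lived ones. Ewing sarcoma is driven in most cases by a fusion of EWSR1 with FLI1, an ETS transcription factor, and the fusion protein acts at enhancers and repeats of GGAA.

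A change is given as the log2 ratio of FPKM + 1 at 200 nM to FPKM + 1 with DMSO. The added 1 makes changes of genes near 0 look smaller than they are. A gene is said to have fallen or risen where it changed at least 2-fold, and to have held where it changed by less than 1.5-fold. The sum of the listed FPKM values without EEF1A1 was, at 200 nM, 98.7% of the sum with DMSO. Shares of the listed FPKM given below also leave out EEF1A1. FPKM values are shares of a library, so an even loss of RNA over all genes would leave no trace in them, and fewer cells cannot be told apart from less RNA per cell. EEF1A1, a translation elongation factor, was at 4400.0 FPKM with DMSO and was listed at 0 with THZ1, so it was set aside. The 8 Ewing sarcoma markers checked, FLI1, NKX2-2 and CD99 among them, were all active with DMSO. Of the markers of other cells, PTPRC (10.2 FPKM, and 13.1 FPKM at 200 nM) of 6 blood cell genes, TP63 (8.15 FPKM) of 6 epithelial genes and none of 5 endothelial and muscle genes were above 1 FPKM.

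At 200 nM the transcripts of 3243 active genes fell (27.3%), 55 rose (0.462%) and 5848 held (49.2%). Over active genes the log2 fold changes had a median of -0.55, with quartiles of -1.05 and -0.11. Of the fallen genes 419 (3.52% of the active genes) changed at least 4-fold, and 2280 genes (19.2%) had a log2 fold change above 0. The split of calls depends on how the libraries are set on one scale. When the 75th percentile of the active genes served as the common unit, 1594 genes fell and 514 rose, and the median moved up by 0.48. When the ribosomal protein median served as the unit, 6049 fell and 11 rose, and the median moved down by 0.47. Lists of genes are therefore described below beside the median of all active genes, which moves with them.

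**Figure D1:**
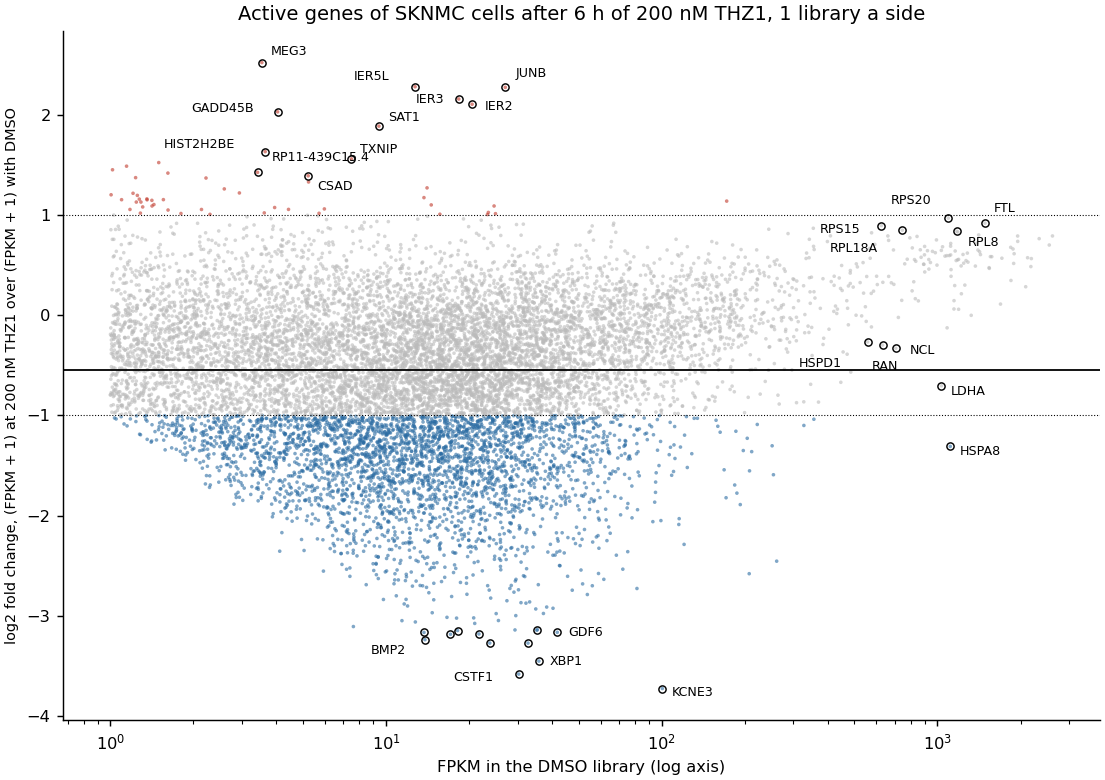
Log2 fold change at 200 nM THZ1 against the FPKM value in the DMSO library (log axis) for the active genes of SKNMC, with 1 lincRNA gene left out. Blue points fell at least 2-fold, red points rose at least 2-fold, the solid line is the median of -0.55, and circles mark the 12 largest falls and 11 of the 12 largest rises above 10 FPKM and the 10 named genes above 500 FPKM. Falls are found mostly between 2 and 100 FPKM, and the genes above 500 FPKM lie mostly above 0.

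The 12 largest falls among genes above 10 FPKM with DMSO left between 4.15% and 9.03% of the DMSO value. KCNE3, a regulatory subunit of potassium channels, fell from 100.5 FPKM in the DMSO library to 10.0 FPKM with 50 nM and 6.68 FPKM with 200 nM (log2 fold change -3.72). The gene lies on chr11:74165885-74178774 (hg19, minus strand). CSTF1, a subunit of the factor that directs cleavage at the 3' end of mRNAs, read 30.3, 8.05 and 1.61 FPKM in the same order (-3.58). XBP1, the transcription factor of the unfolded protein response, read 35.8, 7.80 and 2.37 FPKM (-3.45). In these 3 genes the library at 50 nM lay between those with DMSO and at 200 nM. The same order was found for RHOH, a small GTPase known from blood cells, and FBXO5, an inhibitor of the anaphase-promoting complex. RHOH read 32.7 FPKM with DMSO, 19.3 at 50 nM and 2.49 at 200 nM. FBXO5 read 35.2, 20.6 and 3.10 FPKM. Their values at 50 nM stayed above 50% of DMSO, while those at 200 nM were at 7.62% and 8.79% of it.

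The other 7 of the 12 were FAM111B, BMP2, INTS5, RPP14, KRCC1, GDF6 and DKK1, with log2 fold changes between -3.27 and -3.15. BMP2 and GDF6 are secreted ligands of the BMP family, DKK1 is a secreted inhibitor of WNT signalling, INTS5 is a subunit of the Integrator complex and RPP14 a subunit of RNase P. BMP2 went from 13.8 to 0.57 FPKM and GDF6 from 41.8 to 3.77 FPKM. In A673 at 200 nM, 11 of the 12 also fell at least 2-fold, while BMP2 was at 0.01 FPKM with DMSO there and could not be compared. Of all genes active in both lines 25.7% fell in A673. CSTF1 has a neighbour that fell as well. CSTF1 starts at position 54967426 of chromosome 20 on the plus strand (hg19), and AURKA, the mitotic kinase Aurora A, ends at 54967393 on the minus strand, so that the starts of both genes face away from each other. AURKA went from 50.9 to 7.92 FPKM (-2.54), the lowest value among 42 active mitosis and spindle genes.

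**Figure D2:**
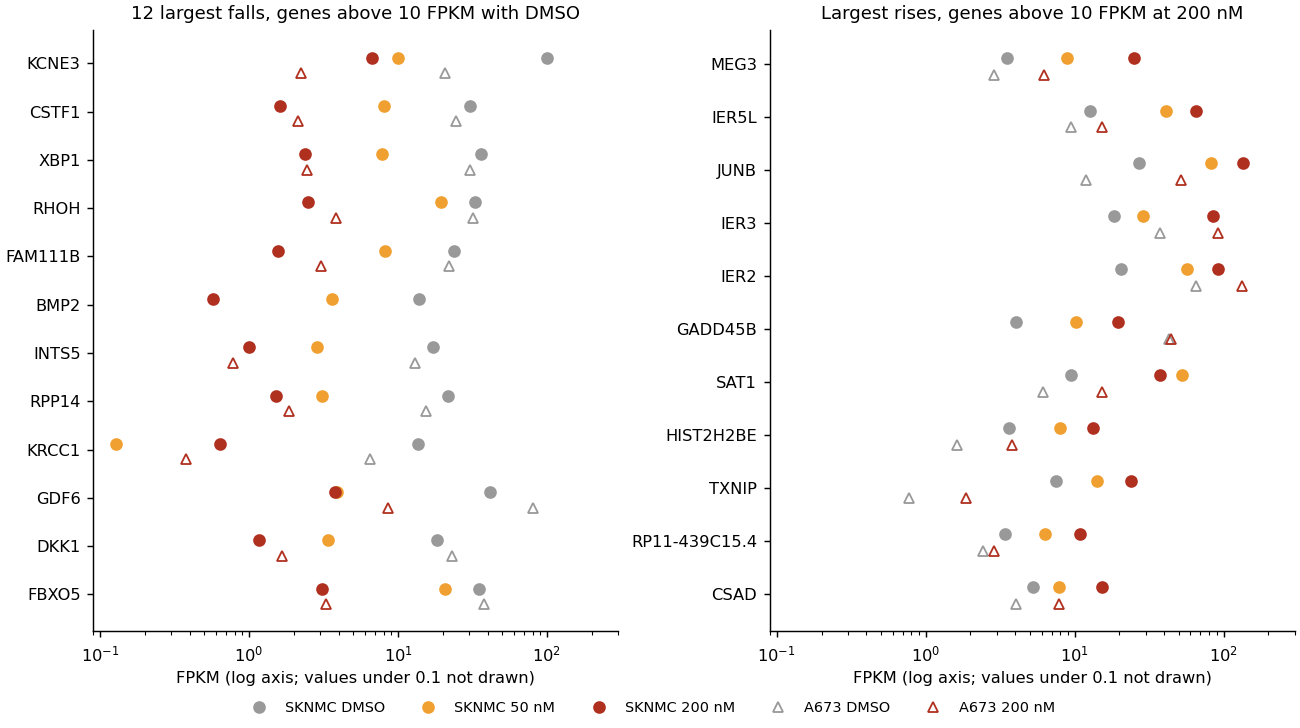
FPKM (log axis) of the 12 genes with the largest falls among those above 10 FPKM with DMSO, and of 11 of the 12 with the largest rises among those above 10 FPKM at 200 nM. Filled circles are the 3 SKNMC libraries and open triangles are A673 with DMSO and at 200 nM, with 1 library per symbol; BMP2 in A673 lies under 0.1 FPKM and is not drawn.

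Rises were few and led by genes of the early response. MEG3, a lincRNA gene of the imprinted region on chr14:101245746-101327368 (hg19), went from 3.54 FPKM with DMSO to 8.88 at 50 nM and 25.1 at 200 nM, the highest log2 fold change at 2.52. JUNB, a subunit of the AP-1 transcription factor, went from 27.1 to 81.9 and 134.6 FPKM (2.27). IER5L, IER3 and IER2, immediate early genes that are switched on within minutes of a stimulus, reached 65.7, 85.3 and 91.5 FPKM at 200 nM from 12.7, 18.4 and 20.5 FPKM with DMSO. Their log2 fold changes were 2.28, 2.16 and 2.10. For each of these 5 genes the order of the libraries was DMSO, 50 nM, 200 nM. GADD45B, a stress-induced regulator of MAP kinases, went from 4.04 to 19.6 FPKM (2.03) in SKNMC, while A673 held it at 43.0 FPKM with DMSO and 44.2 FPKM at 200 nM.

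SAT1, the enzyme that acetylates polyamines for export and breakdown, was higher at 50 nM than at 200 nM, at 52.5 and 37.5 FPKM from 9.42 FPKM with DMSO. TXNIP, the inhibitor of thioredoxin, went from 7.49 to 24.0 FPKM (1.56), the histone gene HIST2H2BE from 3.64 to 13.4 FPKM (1.63), and CSAD, an enzyme of taurine synthesis, from 5.22 to 15.3 FPKM (1.39). The lincRNA gene RP11-439C15.4 reached 10.9 FPKM from 3.42. Another lincRNA gene that the same rule selects is not reported here. Among all 55 risen genes, 45 were protein-coding and 10 lincRNA genes, and 25 were above 10 FPKM at 200 nM. With DMSO 23 of the 55 were under 2 FPKM, close to the limit of 1 FPKM for an active gene. CRIP1, which was picked after its values were seen, was the most abundant with DMSO of the risen genes and went from 172 to 379.7 FPKM (1.14). In A673 at 200 nM, 10 of the 11 named genes were active, all 11 had a log2 fold change above 0, and 4 reached 2-fold. Of all genes active in both lines 0.104% rose in A673.

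The starts of genes from both ends of the order are shown to let their composition be compared. The windows run from 250 bases before to 50 bases after the start in RefSeq (GRCh38.p14), and CSTF1 and XBP1 have 2 starts there, of which the first listed is shown. They are JUNB, chr19:12791236-12791535, plus strand, IER2, chr19:13150161-13150460, plus strand, and GADD45B, chr19:2475877-2476176, plus strand, from the risen genes. KCNE3, chr11:74467500-74467799, minus strand, CSTF1, chr20:56392129-56392428, plus strand, and XBP1, chr22:28800520-28800819, minus strand, are from the fallen genes. Capitals mark matches, on either strand, to any of the 9 motifs searched.
JUNB: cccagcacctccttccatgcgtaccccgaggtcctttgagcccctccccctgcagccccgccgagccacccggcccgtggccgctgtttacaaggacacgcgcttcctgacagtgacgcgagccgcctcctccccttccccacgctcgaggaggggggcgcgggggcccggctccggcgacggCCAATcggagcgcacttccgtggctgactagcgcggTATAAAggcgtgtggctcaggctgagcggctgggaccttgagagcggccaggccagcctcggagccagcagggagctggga
IER2: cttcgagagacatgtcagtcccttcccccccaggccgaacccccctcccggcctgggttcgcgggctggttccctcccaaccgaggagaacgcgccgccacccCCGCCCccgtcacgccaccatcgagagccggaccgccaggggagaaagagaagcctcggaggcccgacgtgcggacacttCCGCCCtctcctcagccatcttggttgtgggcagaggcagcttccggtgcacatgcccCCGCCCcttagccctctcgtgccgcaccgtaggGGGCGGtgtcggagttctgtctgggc
GADD45B: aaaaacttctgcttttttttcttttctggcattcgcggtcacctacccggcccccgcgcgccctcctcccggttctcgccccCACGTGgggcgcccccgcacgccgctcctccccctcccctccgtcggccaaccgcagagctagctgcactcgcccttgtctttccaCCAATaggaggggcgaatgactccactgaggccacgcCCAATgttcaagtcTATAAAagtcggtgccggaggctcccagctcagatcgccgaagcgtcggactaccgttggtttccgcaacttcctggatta
KCNE3: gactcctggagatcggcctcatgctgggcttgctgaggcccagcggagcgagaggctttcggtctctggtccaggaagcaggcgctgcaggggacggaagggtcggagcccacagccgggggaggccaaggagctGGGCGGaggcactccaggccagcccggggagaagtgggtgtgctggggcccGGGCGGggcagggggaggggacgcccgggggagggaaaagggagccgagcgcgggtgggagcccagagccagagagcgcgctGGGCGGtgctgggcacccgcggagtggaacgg
CSTF1: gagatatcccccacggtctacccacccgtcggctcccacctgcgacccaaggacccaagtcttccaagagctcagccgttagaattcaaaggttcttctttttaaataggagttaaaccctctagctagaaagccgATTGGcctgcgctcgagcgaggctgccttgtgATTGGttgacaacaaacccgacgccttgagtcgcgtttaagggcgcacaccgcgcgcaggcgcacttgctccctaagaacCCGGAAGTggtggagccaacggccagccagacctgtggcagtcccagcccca
XBP1: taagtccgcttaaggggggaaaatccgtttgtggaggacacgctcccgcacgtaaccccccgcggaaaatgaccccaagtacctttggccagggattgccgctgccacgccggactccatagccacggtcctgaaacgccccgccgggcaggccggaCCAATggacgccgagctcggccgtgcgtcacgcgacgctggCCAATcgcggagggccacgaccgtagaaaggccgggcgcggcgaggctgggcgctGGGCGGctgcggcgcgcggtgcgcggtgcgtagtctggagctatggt
JUNB and GADD45B hold a TATA box (TATAAA) and CCAAT boxes, GADD45B also an E box (CACGTG), and IER2 holds GC boxes (GGGCGG) only. KCNE3 holds GC boxes, XBP1 holds CCAAT and GC boxes, and CSTF1 holds CCAAT boxes and an ETS site (CCGGAAGT). The other motifs searched were TGACGTCA, GGAAGGAA, GAANNTTC and GCGCATGC, each on both strands, and matches of CCGGAAGT and GGAAGGAA may overlap. A match of letters in such a window is a description and not a bound site.

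Over all genes, promoter windows could be matched for 80.2% of the active genes (9535), 82.9% of the fallen and 81.1% of those fallen at least 4-fold. Under 80% were matched for the held genes (78.7%) and the risen genes (58.2%), so no share is given for them. TATAAA was found in 11.95% of all 27305 windows in the table, in 5.17% of the active genes' and in 4.50% of the fallen genes'. CCGGAAGT was found in 4.44% of all windows, in 9.45% of the active genes', in 11.6% of the fallen genes' and in 12.9% of those fallen at least 4-fold. For GCGCATGC, the core of the site of NRF1, the order was 3.27%, 5.90%, 7.21% and 8.24%. For both motifs the share was higher in the fallen than in the active genes and highest in those fallen at least 4-fold. These sets lie within each other. CCAAT and TGACGTCA, given below, had the same order, and the other motifs searched did not. For TGACGTCA the differences were small, with 13 of 340 windows in genes fallen at least 4-fold. GGGCGG was in 44.6% of all windows, 71.5% of the active and 71.0% of the fallen genes'. GGAAGGAA, a short form of the repeat that EWS-FLI1 binds, was in 3.26% of the active and 3.31% of the fallen genes', against 3.58% of all windows. CCAAT was in 35.7%, 37.0% and 38.6%, CACGTG in 7.43%, 10.6% and 11.3%, TGACGTCA in 1.98%, 3.46% and 3.64%, and GAANNTTC in 6.87%, 4.52% and 3.98% of all, active and fallen genes' windows. For genes fallen at least 4-fold the shares were 41.5% for CCAAT, 3.82% for TGACGTCA and 8.82% for CACGTG. They were 4.71% for TATAAA, 69.1% for GGGCGG, 2.65% for GGAAGGAA and 4.41% for GAANNTTC. The median GC content was 65.7% in the active and 65.3% in the fallen genes' windows. None of these differences was tested.

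Of 157 genes of the transcription machinery 56 fell and 57 held, with a median of -0.74. CDK7, the target of the compound, read 30.4 FPKM with DMSO, 22.0 at 50 nM and 6.33 at 200 nM (-2.10), the lowest of the 11 active TFIIH genes. Its partners in the kinase module, cyclin H (CCNH, 25.1 to 15.7 FPKM, -0.64) and MNAT1 (33.6 to 17.8 FPKM, -0.88), did not reach 2-fold. Of the TFIIH genes 4 fell and 4 held, and the median was -0.71. Among the 7 genes of P-TEFb, the kinase that releases paused polymerase, and of the 7SK complex that inhibits it, 3 fell. MEPCE, which caps 7SK RNA, went from 42.6 to 6.71 FPKM (-2.50), and cyclin T1 (CCNT1) from 16.6 to 4.20 FPKM (-1.76). HEXIM1, the inhibitory protein of the complex, was at 19.7, 40.6 and 30.5 FPKM along the dose, with a log2 fold change of 0.60 at 200 nM, and CDK9 was at 20.3 and 11.7 FPKM with DMSO and 200 nM (-0.74).

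The list of RNA polymerase II subunits differed from that of RNA polymerases I and III. Subunits that the enzymes share were not set apart. Of the 12 listed for RNA polymerase II 8 held, 1 fell (POLR2D, 34.4 to 10.0 FPKM, -1.68) and the median was -0.03. POLR2A, the largest subunit of RNA polymerase II, was at 29.2 FPKM with DMSO, 96.8 FPKM at 50 nM and 46.8 FPKM at 200 nM (0.66). Of 17 subunits of RNA polymerases I and III, which make ribosomal and transfer RNA, 12 fell, 1 held and the median was -1.21. ZNRD1 read 28.2 and 5.52 FPKM (-2.16), and POLR1B read 27.03 and 7.20 FPKM (-1.77). The 32 active Mediator genes, which link enhancer-bound factors to the polymerase, had a median of -0.999 and 16 fell. MED17, of the head module, went from 42.7 to 6.74 FPKM (-2.50), while CDK19, a Mediator kinase, was at 15.7 and 17.9 FPKM (0.18). Among the 30 general factors, TFIID included, 9 fell, with GTF2E1 the lowest (10.7 to 0.82 FPKM, -2.68). The 26 elongation and pausing factors had a median of -0.59, near that of all active genes, with 6 fallen and 13 held. In the family of CDK12 and CDK13, CDK12 went from 19.9 to 8.91 FPKM (-1.07), and the splicing cyclin CCNL1 from 24.9 to 51.4 FPKM (1.01).

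**Figure D3:**
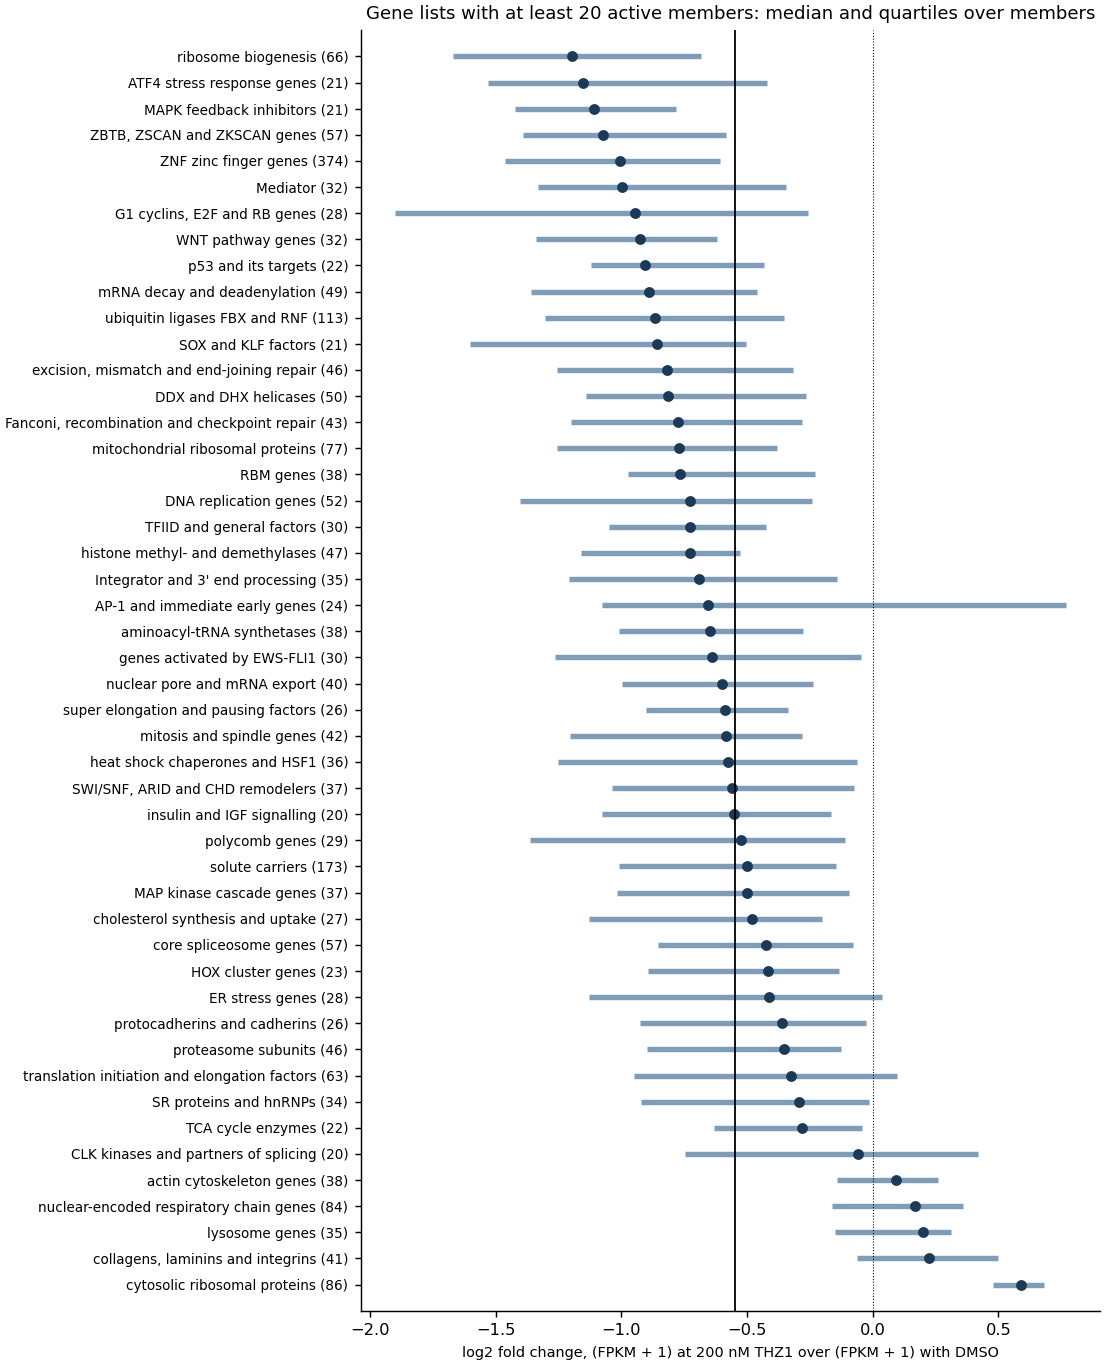
Median (point) and quartiles (bar) of the log2 fold change at 200 nM THZ1 over the active members of each list with at least 20 of them, with the number in brackets. The solid line is the median of all active genes at -0.55 and the dotted line is 0; ribosome biogenesis has the lowest median of those drawn at -1.20 and the cytosolic ribosomal proteins the highest at 0.59.

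Transcription factors and chromatin genes made up the theme with the largest share of fallen genes among those with over 20 active members, at 282 of 619 (45.6%). Of these 282 fallen genes 188 had ZNF symbols, so the rank of the theme rests largely on them. Outside the ZNF, ZBTB, ZSCAN and ZKSCAN genes its lists ran from 17.4% fallen (HOX genes) to 50% (SMAD and ID genes). Genes with ZNF symbols, most of which encode zinc finger proteins that bind DNA, fell in 188 of 374 cases (50.3%) with a median of -1.005, and none rose. ZNF672 was the lowest (14.9 to 1.49 FPKM, -2.67), ZNF207 the most abundant (107 to 74.6 FPKM, -0.52) and ZNF587B the highest (3.83 to 8.41 FPKM, 0.96). Many ZNF genes lie in clusters on chromosome 19. There 86 of 171 fell (50.3%), on the other chromosomes 102 of 203 (50.2%), and of the other genes of chromosome 19 151 of 677 (22.3%). ZBTB, ZSCAN and ZKSCAN genes had a median of -1.07 with 32 of 57 fallen. SOX and KLF factors had a median of -0.86, with SOX18, the most abundant, at 67.6 and 18.6 FPKM (-1.81). Near-identical members of these families can share reads, so the values of single ZNF genes are less certain than those of the list.

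Enzymes that write and remove histone marks were nearer to the common level. Of 47 histone methylases and demethylases 18 fell (median -0.73), with SUV39H1, which marks heterochromatin, at 14.1 and 1.70 FPKM (-2.48). Of 29 polycomb genes 10 fell (median -0.53), and of 37 remodelling genes also 10 (median -0.56). CHD1 went from 23.8 to 4.29 FPKM (-2.23) and CHD2 from 9.26 to 18.6 FPKM (0.94). BRD2, a BET reader of acetylated histones, was at 110 FPKM with DMSO, 241 FPKM at 50 nM and 78.9 FPKM at 200 nM (-0.48).

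The theme called the Ewing sarcoma programme pools genes listed as activated by EWS-FLI1 with genes listed as repressed by it. FLI1, the FET genes and super-enhancer genes named in the study are also in it. Of its 58 active genes 20 fell (34.5%) and 24 held (41.4%), with a median of -0.65. Over all active genes 27.3% fell, 49.2% held and the median was -0.55. The pooled count gives no direction for the targets of the fusion. FLI1, whose reads can come from the normal gene and from the fusion, was at 27.3 FPKM with DMSO, 15.2 at 50 nM and 4.56 at 200 nM (-2.34). EWSR1, which is also expressed from its intact copy, was at 161, 170.1 and 126 FPKM (-0.35). The 10 super-enhancer genes that the study names had a median of -1.36 and 7 of them fell. The study chose these genes on these lines, so they are no independent evidence of a direction. CITED2, a cofactor of CBP and p300, was at 208 FPKM with DMSO, 93.2 FPKM at 50 nM and 33.9 FPKM at 200 nM (-2.58). APCDD1, an inhibitor of WNT signalling, was at 187, 50.0 and 54.0 FPKM in the same order (-1.78). MEIS1, a homeobox transcription factor, was at 54.7, 21.2 and 18.7 FPKM (-1.50), and BCL11B at 21.4, 9.06 and 8.88 FPKM (-1.18). For APCDD1, MEIS1 and BCL11B the values at the 2 doses were close to each other. MYC, by contrast, was at 198, 167 and 76.8 FPKM (-1.35), and NKX2-2, a homeobox target of the fusion, at 37.6, 27.3 and 11.4 FPKM (-1.64).

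Some members of the programme did not reach a 2-fold fall. CCND1, the D-type cyclin (370 to 202 FPKM, -0.87), and IGF2BP1, an RNA-binding protein (39.2 to 23.0 FPKM, -0.74), are among them. Both were lower than the median of all active genes and did not hold within 1.5-fold. HOOK1 was at 63.9 and 50.0 FPKM (-0.35). The surface antigen CD99 was at 313 and 346 FPKM (0.14) and the kinase gene PRKCB at 71.6 and 66.3 FPKM (-0.11). Of 30 active genes listed as activated by EWS-FLI1, 9 fell (30%) and 12 held, with a median of -0.64. Over all active genes 27.3% fell and the median was -0.55, so this list was near the common level. The lowest was DKK2, a secreted WNT regulator (45.6 to 6.65 FPKM, -2.61). The highest value was that of LOX, which crosslinks collagen (21.7 to 38.5 FPKM, 0.80). LOX is also listed among the genes repressed by the fusion, so it cannot stand for the activated genes. NR0B1, an orphan nuclear receptor, was at 25.2 FPKM with DMSO and 8.10 FPKM at 200 nM (-1.53). Of 18 genes known to be repressed by the fusion 5 fell, none rose, and the median was -0.39, with DKK1 lowest and LOX, which is on both lists, highest. This share of 27.8% is near the 27.3% of all active genes. The median was 0.03 for the 15 members above 5 FPKM with DMSO and 0.04 with the 75th percentile scaling, under which 3 fell and 5 rose. LOX was at 20.2 and 19.9 FPKM in A673 with DMSO and at 200 nM.

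**Figure D4:**
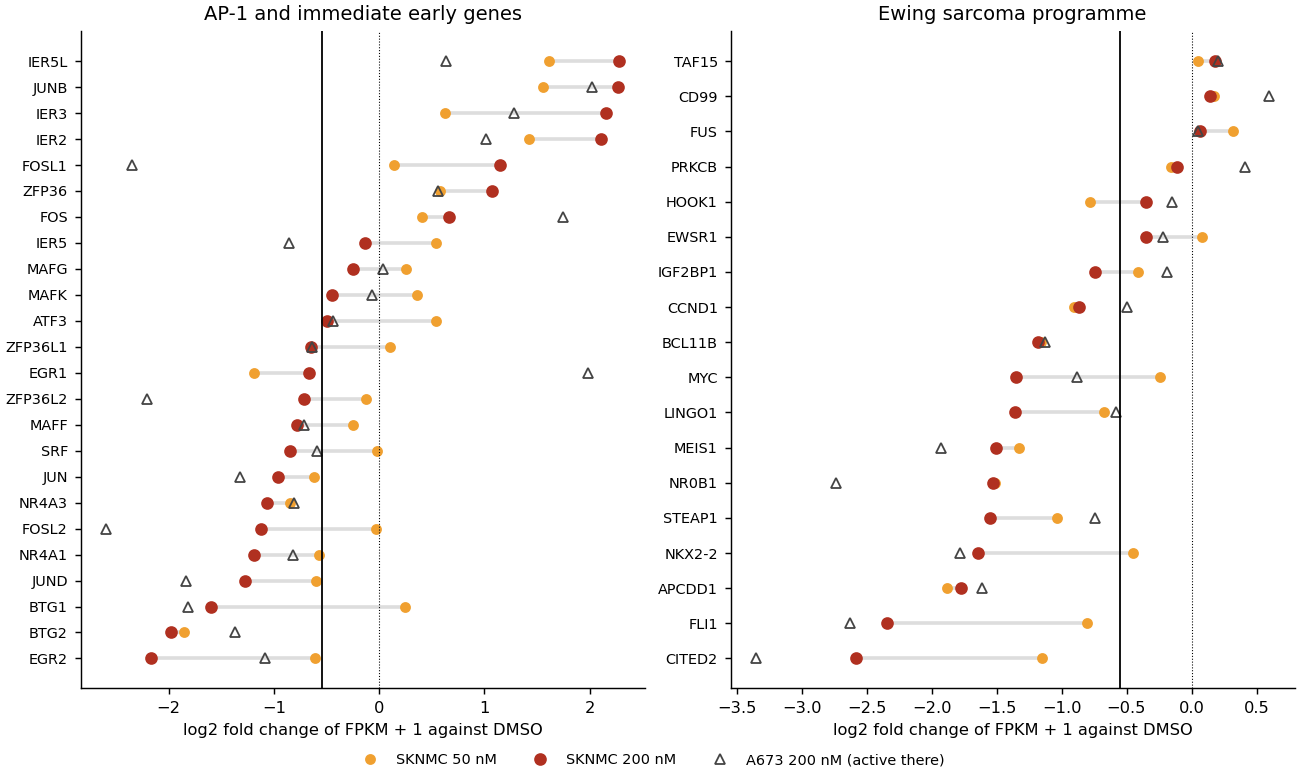
Log2 fold change against DMSO of the 24 active AP-1 and immediate early genes and of Ewing sarcoma markers, FET genes and the study's named super-enhancer genes. Filled circles are SKNMC at 50 and 200 nM, which share the DMSO library, and open triangles are A673 at 200 nM; the solid line is the SKNMC median of -0.55 at 200 nM.

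Early response genes were spread over the widest middle range of the lists with at least 20 active members. Of 24, 7 fell, 6 rose and 4 held, with quartiles of -1.08 and 0.77. Beside IER5L, JUNB, IER3 and IER2, the risen genes were ZFP36, which targets unstable mRNAs for decay (3.95 to 9.41 FPKM, 1.07), and FOSL1, an AP-1 subunit (1.42 to 4.34 FPKM, 1.15). FOS was at 14.0 and 22.8 FPKM (0.67). EGR2, a zinc finger factor, went from 32.2 to 6.37 FPKM (-2.17), JUND from 49.4 to 19.9 FPKM (-1.27), and the antiproliferative gene BTG2 from 13.7 to 2.74 FPKM (-1.97). JUN was at 27.2 and 13.5 FPKM (-0.96). AP-1 subunits were therefore found on both sides, with JUNB and FOSL1 up, JUND and FOSL2 (3.49 to 1.06 FPKM, -1.12) down.

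Feedback inhibitors of MAP kinase signalling, most of them phosphatases of the DUSP family, had a median of -1.11, and 12 of 21 fell. DUSP7 went from 56.2 to 10.9 FPKM (-2.26), DUSP2 from 81.7 to 20.5 FPKM (-1.94) and DUSP6 from 4.75 to 0.54 FPKM (-1.91). The kinases of the cascade, by comparison, had a median of -0.50, with 10 of 37 fallen and 20 held, and NRAS was at 66.7 and 46.8 FPKM (-0.50). In the SMAD and ID list 8 of 16 fell (median -0.99). TGIF2, a corepressor of SMADs, went from 38.3 to 4.21 FPKM (-2.91) and ID4 from 58.7 to 12.01 FPKM (-2.20), while ID1 (160.1 to 153 FPKM, -0.06) and ID2 (187 to 183 FPKM, -0.03) held. SMAD7, the inhibitory SMAD, was at 11.3 and 18.6 FPKM (0.67). WNT pathway genes had a median of -0.93 with 15 of 32 fallen, led by the receptor gene FZD8 (20.7 to 2.60 FPKM, -2.59), while CTNNB1, which encodes beta-catenin, was at 76.9 and 83.2 FPKM (0.11). Hippo pathway genes had a median of -1.003 with 9 of 18 fallen and 7 held, from AMOTL2 (14.2 to 1.84 FPKM, -2.42) to CYR61 (28.7 to 29.3 FPKM, 0.03).

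Genes of survival, cell cycle and genome maintenance had 100 fallen members of 268 (37.3%), beside 27.3% of all active genes. Death receptors and their adaptors had a median of -1.03. TNFRSF1A, the receptor of TNF, went from 35.4 to 3.14 FPKM (-3.14), the adaptor FADD from 19.6 to 2.35 FPKM (-2.62) and CASP8 from 23.0 to 6.15 FPKM (-1.74). CFLAR, the inhibitor of caspase 8, was at 15.7 and 14.7 FPKM (-0.09). Within the BCL2 family 6 of 15 fell (40%) and 7 held (46.7%), beside 27.3% and 49.2% of all active genes. The fallen ones include members that promote death, BAK1 (10.6 to 2.31 FPKM, -1.81) and BMF (26.4 to 8.27 FPKM, -1.56), and members that oppose it, BCL2L1 (16.9 to 5.57 FPKM, -1.45) and BCL2 (7.77 to 3.36 FPKM, -1.01). MCL1 was at 63.8, 64.8 and 31.8 FPKM along the dose (-0.98), and BAX was at 50.9 and 52.2 FPKM (0.04).

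The G1 and E2F list had 7 of 28 genes with falls of at least 4-fold, beside 3.52% of all active genes. CDC25A, the phosphatase that activates CDK2, went from 19.6 FPKM with DMSO to 16.6 at 50 nM and 2.22 at 200 nM (-2.67). Cyclin E1 (CCNE1) went from 18.6 to 2.09 FPKM (-2.67), and E2F2, E2F3, E2F5, E2F6 and E2F8 had log2 fold changes between -2.54 and -2.23. RB1, which restrains E2F factors, was at 31.6 and 32.1 FPKM (0.02), and the CDK inhibitor CDKN1C at 7.61 and 13.1 FPKM (0.72). Mitosis and spindle genes had a median of -0.58 with 16 of 42 fallen and 21 held. PLK1, the most abundant, was at 106 and 39.9 FPKM (-1.39). Replication genes had a median of -0.73, from POLD3 (23.7 to 4.01 FPKM, -2.30) to POLE (27.2 to 39.0 FPKM, 0.50). PCNA, the sliding clamp, was at 264, 292 and 151 FPKM along the dose (-0.80).

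DNA repair genes were split into 2 lists with like medians, -0.82 for excision, mismatch and end-joining repair and -0.77 for the Fanconi, recombination and checkpoint genes, and 17 genes fell in each. DCLRE1B, a nuclease of the telomere, was at 21.0 and 1.61 FPKM (-3.08) and PALB2, the partner of BRCA2, at 10.97 and 1.05 FPKM (-2.54). The kinase genes PRKDC (67.0 to 127 FPKM, 0.92) and ATM (5.21 to 8.16 FPKM, 0.56) had the highest values. Of 22 p53 target genes 8 fell, and MDM2, which degrades p53, went from 20.5 to 9.59 FPKM (-1.02) and PPM1D from 9.68 to 1.70 FPKM (-1.99) after 14.9 FPKM at 50 nM.

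Ribosomes gave opposite pictures at different stages. The transcripts of cytosolic ribosomal proteins were mostly higher. Their 86 active genes had a median log2 fold change of 0.59 and quartiles of 0.48 and 0.68, 40 held, none rose and 1 fell. With the 75th percentile scaling 68 rose, none fell and the median was 1.15, while a scaling by these same genes sets their median near 0 by construction. RPS27, the most abundant, was at 2612 FPKM with DMSO, 3499 at 50 nM and 4519 at 200 nM (0.79), and RPS20 was at 1094, 1469 and 2141 FPKM (0.97). Together the ribosomal protein genes took 19.4% of the listed FPKM with DMSO and 30.1% at 200 nM. The 1 fallen gene, RPL7L1, is a relative of RPL7 that acts in ribosome assembly (83.0 to 37.2 FPKM, -1.13). These genes have many processed copies in the genome, and how reads shared with them were counted is not given in the sources used here.

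By contrast the genes that build ribosomes had a median of -1.20, and 41 of 66 fell and 15 held. RRP8, a ribosomal RNA methyltransferase, went from 15.6 to 2.37 FPKM (-2.30) and RRS1 from 26.0 to 4.61 FPKM (-2.27). The most abundant members were not among the fallen. NPM1, a nucleolar chaperone, was at 1325 and 1324 FPKM, fibrillarin (FBL) at 291 and 334 FPKM (0.20), and nucleolin (NCL) at 705 and 561 FPKM (-0.33). Mitochondrial ribosomal proteins had a median of -0.77 with 30 of 77 fallen and none risen. They ran from MRPL36 (68.4 to 12.2 FPKM, -2.39) to MRPL30 (4.52 to 8.64 FPKM, 0.80). In A673 at 200 nM the median of the mitochondrial list was -0.26 and 13 of 77 fell. Initiation and elongation factors were at -0.33, with EEF1G at 1244 and 1783 FPKM (0.52), and aminoacyl-tRNA synthetases at -0.65, with PARS2 the lowest (5.93 to 0.18 FPKM, -2.55).

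RNA processing genes differed by their step. Core spliceosome genes had a median of -0.42 with 9 of 57 fallen and 34 held, and SR proteins and hnRNPs -0.30 with 7 of 34 fallen. HNRNPA1, the most abundant, was at 1147 and 1197 FPKM (0.06), while HNRNPDL was at 254 FPKM with DMSO, 66.4 at 50 nM and 83.6 at 200 nM (-1.59). For 20 CLK kinases and partners of splicing the median was -0.06, with 2 fallen and 8 held. NKTR, a cyclophilin with an SR domain, was at 10.2 and 20.4 FPKM (0.93), and the splicing kinase SRPK1 at 41.4 and 18.7 FPKM (-1.10). Genes of mRNA decay had a median of -0.89 with 21 of 49 fallen, among them the exosome subunit EXOSC3 (25.6 to 2.22 FPKM, -3.05). Genes of Integrator and 3' end processing had a median of -0.69 with 13 of 35 fallen. Beside CSTF1 and INTS5, the highest was CPSF1, another cleavage factor (55.1 to 77.0 FPKM, 0.47). In export, NXF1, the mRNA export receptor, was at 35.2, 128 and 55.9 FPKM along the dose (0.65), and its partner NXT1 at 28.4, 21.1 and 4.86 FPKM (-2.32).

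Chaperones and stress genes also divided by member. HSPA8, the constitutive HSP70, was the only fallen gene among the 119 above 500 FPKM with DMSO, at 1113 FPKM with DMSO, 708 at 50 nM and 448 at 200 nM (-1.31). HSP90AA1 was at 342, 365 and 509.5 FPKM (0.57). In the heat shock list 11 of 36 fell (30.6%) and 18 held (50%), with a median of -0.58. Over all active genes 27.3% fell, 49.2% held and the median was -0.55, so this list was near the common level. BAG2 was its lowest member (26.0 to 3.75 FPKM, -2.51). Of 28 genes of the endoplasmic reticulum stress response 10 fell (35.7%) and 16 held (57.1%). The fallen ones include the regulators XBP1 and DDIT3 (10.7 to 1.16 FPKM, -2.44), while the abundant chaperones HSP90B1 (279 to 328 FPKM, 0.23) and PDIA3 (165 to 218 FPKM, 0.40) held. Genes of the ATF4 stress response had a median of -1.15 with 11 of 21 fallen, but among the 19 above 5 FPKM with DMSO it was -0.62, beside -0.58 for all such genes. TRIB3, a pseudokinase, went from 11.97 to 0.74 FPKM (-2.90) and the amino acid transporter gene SLC7A5 from 69.5 to 23.4 FPKM (-1.53), while the serine synthesis genes PHGDH (151 to 142 FPKM, -0.09) and PSAT1 (105 to 102 FPKM, -0.04) held.

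On the deposited scale the genes that held best were those of structure and of energy metabolism. In the theme of cell structure, adhesion and surface 138 of 179 held (77.1%) and 13 fell (7.26%), and in metabolism 210 of 334 held (62.9%), against 49.2% of all active genes. None of 38 actin cytoskeleton genes fell and 36 held, with beta-actin (ACTB) at 1693 and 1827 FPKM (0.11). Of 84 nuclear-encoded respiratory chain genes 72 held and 6 fell, from the assembly factor NDUFAF4 (50.6 to 9.48 FPKM, -2.30) to COX6C (244 to 444 FPKM, 0.86). Collagens, laminins and integrins had 31 held, 2 fallen and 1 risen of 41, with the integrin ITGA5 lowest (28.4 to 8.11 FPKM, -1.69) and the collagen COL5A2 highest (24.7 to 53.6 FPKM, 1.09). Lysosome genes had 28 of 35 held, with the sphingomyelinase SMPD1 lowest (73.0 to 28.9 FPKM, -1.31). Among 16 glycolysis enzymes 11 held, 1 fell (HK1, 5.64 to 2.12 FPKM, -1.09), GAPDH was at 1879 and 2969.7 FPKM (0.66) and LDHA at 1033 and 634 FPKM (-0.70). The medians of these 5 lists lay between 0.09 and 0.22, and below 0, between -0.50 and -0.24, when the libraries were divided by the ribosomal protein median. With the 75th percentile scaling they lay between 0.66 and 0.76, above the 1.5-fold limit for held genes. That these genes held is thus a statement about the deposited scale. Under the deposited scale and under division by the 75th percentile or by the ribosomal protein median they stayed above the median of all active genes.

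The level with DMSO went along with the share that fell. It was 7.98% of the genes between 1 and 2 FPKM, 26.4% between 2 and 5, 36.6% between 5 and 10 and 35.7% between 10 and 20 FPKM. From there it was 29.0% up to 50 FPKM, 19.5% up to 100 FPKM, 6.07% up to 500 FPKM and 0.84% above. The added 1 FPKM limits the fall that can be seen at the low end. Of the 119 genes above 500 FPKM, 107 had a log2 fold change above 0, and the ferritin light chain gene FTL (1486 to 2810.1 FPKM, 0.92) stood beside RPS20 at the top. These 119 genes took 28.3% of the listed FPKM with DMSO and 41.1% at 200 nM. Many of them encode cytosolic ribosomal proteins, a list whose middle value was 987 FPKM in the DMSO library. That list alone went from 19.4% to 30.1% of the listed FPKM, so this result overlaps with the one given for it above. Whether level went along with the change above 500 FPKM outside that list was not tested.

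Within a narrow band of level, genes with few exons fell more often than genes with many. Among genes between 5 and 50 FPKM, the share that fell was 59.4% of 128 genes with 1 exon in their canonical transcript (GENCODE on GRCh37), 62.8% of 298 with 2 exons and 47.8% of 853 with 3 or 4. It was 37.8% of 1860 genes with 5 to 8 exons, 30.2% of 2410 with 9 to 16 and 18.7% of 1693 with more. CITED2 and NKX2-2 have 2 exons, as has INTS5, and FZD8 has 1. Yet the risen JUNB, IER5L and HIST2H2BE also have 1 exon and IER2 and IER3 have 2, and 9.09% of the risen genes had 1 exon beside 3.15% of the fallen and 2.35% of all active genes. Gene span followed a like order in this band, with 41.9% fallen of 537 genes up to 5 kb and 15.0% of 474 genes above 200 kb. Exon number and span go together between genes, and their parts were not separated.

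**Figure D5:**
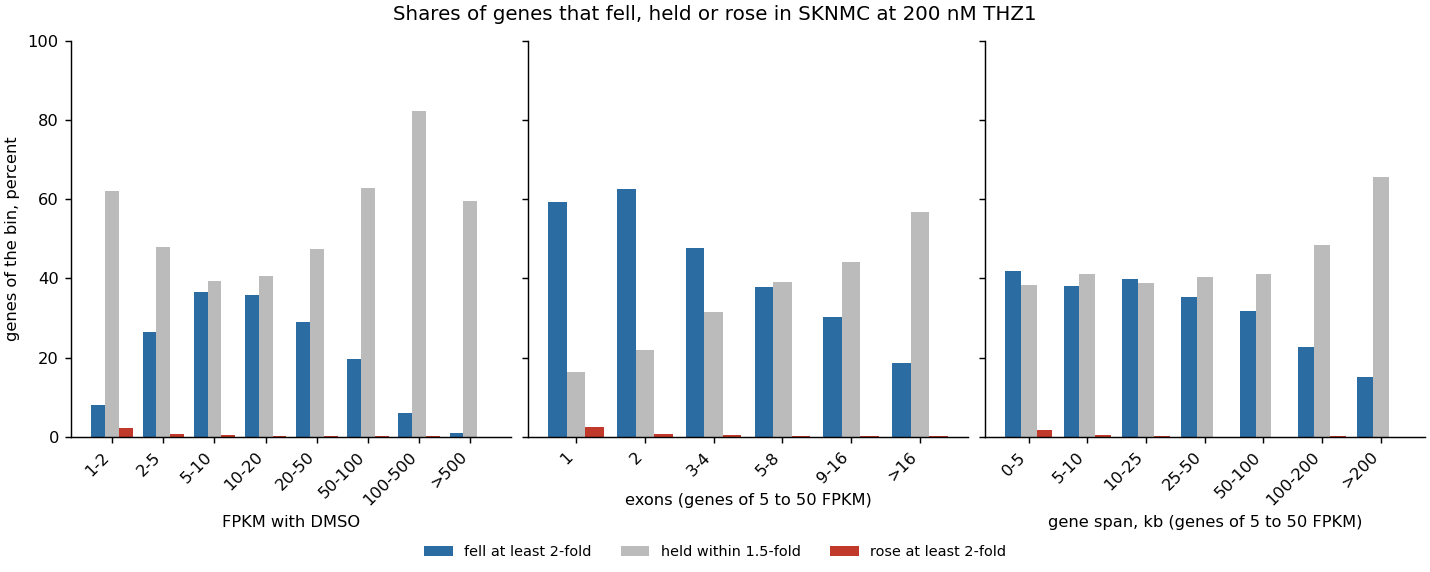
Share of active SKNMC genes, in percent, that fell at least 2-fold (blue), held within 1.5-fold (grey) or rose at least 2-fold (red) at 200 nM THZ1, by FPKM with DMSO (left), number of exons (middle) and gene span in kb (right). Exons and span are shown for genes between 5 and 50 FPKM, where the fallen share goes from 59.4% at 1 exon to 18.7% above 16 exons.

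By biotype, 59 of 345 lincRNA genes fell (17.1%) and 10 rose (2.90%), against 27.6% and 0.390% of the protein-coding genes. Their median level with DMSO was 2.30 FPKM, beside 14.0 FPKM for protein-coding genes. LINC00339 was the lowest above 10 FPKM, at 16.3, 2.12 and 1.83 FPKM along the dose (-2.62), and MEG3 the highest. Over chromosomes the share that fell went from 16.5% of 425 genes on X to 33.2% of 322 genes on chromosome 20.

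Against A673 at 200 nM, 10573 genes were active in both lines. Of these 3029 (28.6%) fell in SKNMC and 2712 (25.7%) in A673, and 2160 fell in both, which is 71.3% of the SKNMC list and 79.6% of the A673 list. The 2 lines have DMSO libraries of their own. All 3243 fallen SKNMC genes, active in A673 or not, had a median log2 fold change of -1.26 in A673. All 5848 held genes had one of 0.02. In genes near 0 FPKM in A673 the added 1 draws the change towards 0. Of the genes active in both lines, another 329 fell in SKNMC and held in A673, and 115 the other way. Rises were found for 39 of these genes in SKNMC (0.369%) and for 11 in A673 (0.104%). The 7 that rose in both are 17.9% of the SKNMC list and 63.6% of the A673 list, and 35 of the 39 had a log2 fold change above 0 in A673. FOSL1 rose in SKNMC (1.15) and was at -2.35 in A673, and CCNL1 was at 1.01 and -0.16. With 1 library a condition, how the lines differ was not tested.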

How the data were processed

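Total RNA of A673 and SKNMC cells was sequenced after 6 h in DMSO, 50 nM or 200 nM THZ1, with 1 column per condition in the deposited table. Whether a column averages several libraries is not given in the sources used here. The authors aligned reads to hg19 with STAR. The deposited values are FPKM per gene, made by the authors with Cufflinks per the submitters' processing notes and with StringTie per the methods, with versions not given. The table also holds 4 columns of the authors' log2 fold changes, which were not used. No counts were used, so the absolute depth is unknown and no interval is given. From the lowest values, where a gene may hold a single fragment, the 200 nM library may have had about 89.5% of the depth of the DMSO library, though only 4.42% of 1108 such genes shared this ratio.

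The log2 ratio of FPKM + 1 was computed per gene for genes above 1 FPKM with DMSO, EEF1A1 set aside, in Python 3.11.15 with numpy 2.4.6 and pandas 2.3.3, and the steps were tested on simulated data. Figures were drawn with matplotlib 3.10.9. Exon numbers came from the GENCODE annotation on GRCh37 and matched 97.8% of active genes. The members and 77 lists were chosen with earlier results of these data known. Named were the 12 largest falls above 10 FPKM with DMSO and the 12 largest rises above 10 FPKM at 200 nM, the 5 lowest and 5 highest genes above 500 FPKM, the lowest, highest and most abundant gene of each list, the lowest and highest lincRNA gene above 10 FPKM in either library, and 19 fixed genes. Other genes were chosen after their values were seen, among them CRIP1, the FOS, JUN and E2F family members, CCNE1, FADD, CASP8, CFLAR, BCL2, BCL2L1, BMF, ID1, ID2, ID4, PHGDH, SLC7A5, MDM2, RB1, POLR1B and RRS1. Alternatives were another pseudocount, other limits on low values, protein-coding genes alone, 3 other scalings, leaving out genes listed at 0, and a limit of 1.5-fold.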

Additional observations from a re-analysis of the deposited data

Results flagged for a closer look

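A set of results had opposite signs at 200 nM in the 2 lines. HSPD1, the mitochondrial chaperonin, had a log2 fold change of -0.27 in SKNMC (558 to 464 FPKM) and 0.14 in A673. The median of proteasome subunits was -0.35 in SKNMC and 0.08 in A673, and that of chaperonin CCT and prefoldin genes -0.39 and 0.13. Genes of endoplasmic reticulum stress were at -0.41 and 0.04, those of cholesterol synthesis and uptake at -0.48 and 0.10, and TCA cycle enzymes at -0.28 and 0.13. For polyamine genes the medians were -0.17 and 0.09, for MHC class I and antigen processing -0.11 and 0.38, and for RNA polymerase II subunits -0.0255 and 0.12. With 1 library per condition these differences were not tested. The medians over all active genes of each line were -0.55 and -0.40, and the signs depend on the scale of each library.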

How the results depend on the processing

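The count of fallen genes went from 3243 to 1594 with the 75th percentile scaling, to 6049 with the ribosomal protein scaling and to 5713 at a limit of 1.5-fold. The count of risen genes, 55, became 93 with a pseudocount of 0.1, 20 above 5 FPKM, 110 with genes above 1 FPKM in either library, 110 with no filter, 514 with the 75th percentile scaling, 11 with the ribosomal protein scaling and 334 at 1.5-fold. Held genes went from 5848 to 21041 with no filter, which adds genes near 0, and to 2742 with the ribosomal protein scaling. The median of -0.55 was -0.64 with a pseudocount of 0.1, -0.58 above 5 FPKM, -0.53 with genes above 1 FPKM in either library, 0 with no filter, -0.0707 with the 75th percentile and -1.02 with the ribosomal protein scaling. A common sum, protein-coding genes alone and leaving out genes listed at 0 kept these 4 values close. EWSR1, HSPD1, NCL and RAN have a log2 fold change above 0 with the 75th percentile scaling. The AP-1, MAP kinase cascade, cholesterol and polycomb lists changed sides of the median of all active genes with the ribosomal protein scaling, as did 5 lists at most 0.054 from it with the 75th percentile, 6 at most 0.054 from it with a pseudocount of 0.1, and the insulin and IGF list with protein-coding genes alone. Above 5 FPKM 5 lists changed sides, among them HOX genes and cadherins, whose median went from -0.36 to -0.59. That limit also moved the medians of ATF4 genes from -1.15 to -0.62, of genes repressed by EWS-FLI1 from -0.39 to 0.03, of clustered histone genes from 0.07 to -0.30, of CLK kinases and partners from -0.06 to 0.04 and of collagens, laminins and integrins from 0.22 to 0.43. No paired analysis was possible because each condition had 1 library and no test was run. Unknown depth and the lack of replicates limit every value.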

Other observations

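Further gene groups of SKNMC at 200 nM were mixed. Of 23 active HOX genes 4 fell, 2 rose and 12 held, with a median of -0.42. Among the 12 above 5 FPKM with DMSO 4 fell, none rose and the median was -0.89, on the other side of the median of all such genes at -0.58. HOXD13, the most abundant, went from 92.8 FPKM with DMSO to 54.6 at 50 nM and 21.5 at 200 nM (-2.06), while HOXB6 (2.59, 11.9 and 7.60 FPKM, 1.26) and HOXB5 (1.21, 7.89 and 4.13 FPKM, 1.22) rose and were highest at 50 nM. Of 113 ubiquitin ligase genes with FBX or RNF symbols 50 fell (median -0.87), and RNF146 went from 17.6 to 2.13 FPKM (-2.57), while FBXW7, which targets MYC and cyclin E, was at 4.98, 14.1 and 9.60 FPKM (0.82). Solute carriers, with 44 of 173 fallen and 89 held, had a median of -0.50, near that of all active genes. SLC38A2, a transporter of neutral amino acids, went from 261 FPKM with DMSO to 105 at 50 nM and 46.8 at 200 nM (-2.45), and SLC25A3, the mitochondrial phosphate carrier, was at 427, 543 and 454 FPKM (0.09).

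In cholesterol synthesis and uptake 9 of 27 genes fell and 15 held. Mevalonate kinase (MVK), of the early steps of the pathway, went from 10.8 to 1.63 FPKM (-2.16), and FDPS, the most abundant, was at 144 and 137 FPKM (-0.07). Among 12 polyamine genes SAT1 rose and AMD1, which makes the donor for spermidine synthesis, fell from 77.9 FPKM with DMSO to 23.2 FPKM at 200 nM (-1.70) after 89.5 FPKM at 50 nM. OAZ1, the antizyme that lowers polyamine synthesis, was at 357, 523 and 563 FPKM (0.65). Circadian clock genes had a median of -0.78, with 3 of 15 fallen, TEF the lowest (3.43 to 0.35 FPKM, -1.72). None of these values was tested.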
